A study of Mus musculus with 8 samples.

Results

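The interleukins and their receptors were followed in isolated white adipocytes from epididymal fat. They were taken as the protein-coding rows of the expression table whose mouse symbol begins with Il and a digit, which gave 73 of 30387 rows. The rule reads names and no measured values, so it leaves out receptor chains with other symbols and takes in 2 genes that are not cytokines or cytokine receptors in the usual sense, Il4i1 and Il1rapl1. Averaged over all libraries, 54 of the 73 members reached 5 normalized counts, the lowest mean at which a gene was tested.

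Adipocytes came from wild-type littermates (WT) and from Ad-Yap/Taz-KO mice, which carry Adipoq-Cre together with homozygous floxed alleles of both Yap and Taz. In these mice Cre under the adiponectin promoter removes the transcriptional co-activators YAP and TAZ in adipocytes from the time the promoter is active. Both genotypes had been kept on standard diet (SD) or high-fat diet (HFD) for 4 weeks, from week 5 of age according to the data set's description, whereas the paper's methods give a later starting age. Each of the 4 groups (WT SD, Ad-Yap/Taz-KO SD, WT HFD and Ad-Yap/Taz-KO HFD) had 2 libraries, which the paper describes as 2 mice per group. Because this promoter is that of an adipocyte gene, any blood or stromal cells carried over in the preparation would be expected to keep both genes. Recombination in such cells was not tested here.

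Interleukins are secreted signals, made mainly by immune cells but also by fat and stromal cells, that act through paired receptor chains. Most use receptors that lack their own enzyme and signal through JAK kinases and STAT factors, whereas receptors of the IL-1 family and the IL-17 family work through adaptor proteins towards NF-kappaB and MAP kinases. Antagonists and decoy receptors bind a receptor or ligand without passing on a signal. In white fat, IL-1beta, IL-6 and IL-10 are known from macrophages that gather around dying fat cells, and adipocytes themselves make IL-6 and carry receptors for IL-1, IL-4 and IL-6.

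Values are called normalized counts below: reads counted per gene, scaled by the authors with a size factor of each library and then rounded. In the 6 libraries where the value of 1 read could be recovered from the rounded numbers it was 0.795 to 1.135 normalized counts, which gave 14.0 to 22.3 M reads on genes; for the first library of each SD group it could not be recovered, and their depth in reads is unknown (15.4 and 15.5 M normalized counts in all). A value of 0 allows up to 3 reads, for counting error only. Wwtr1, which encodes TAZ, had 4743 to 7121 normalized counts in the WT libraries and 1957 to 2707 in the Ad-Yap/Taz-KO libraries. For Yap1 these ranges were 2333 to 2776 and 1549 to 2068. By the limma test described below, Wwtr1 was called lower on HFD (log2 fold change -1.56, adjusted p = 3.1e-05) and on SD (-1.24, adjusted p = 0.00097). Yap1 was called lower on SD (-0.705, adjusted p = 0.024) but not on HFD (-0.42, adjusted p = 0.059). The WT HFD libraries stood apart in being unusually alike: at 1000 to 5000 reads their squared difference was 5.87 times the Poisson expectation, against 27.9 to 72.8 in the other groups. At 5 to 20 reads it was 4.73, against 4.63 to 6.36, and at 20 to 100 reads 4.89, against 5.33 to 8.28, so they stood apart less, or not at all, at the levels of low members. Calls that involve WT HFD were therefore also made with these libraries averaged to 1 sample.

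The sum of 10 adipocyte markers was 207314 and 215024 normalized counts in WT SD, 169120 and 242600 in Ad-Yap/Taz-KO SD, 377771 and 370473 in WT HFD, and 189972 and 95111 in Ad-Yap/Taz-KO HFD, of which replicate 2 was the lowest of all libraries. Markers of other cells also moved with genotype. The sum of 12 macrophage markers was 6284 and 6207 in WT SD, 30223 and 17431 in Ad-Yap/Taz-KO SD, 3585 and 3792 in WT HFD, and 32379 and 30387 in Ad-Yap/Taz-KO HFD. Of these 12 markers, 10 were called higher in Ad-Yap/Taz-KO on HFD and 9 on SD, and none was at 0 in all libraries. On HFD, 8 of 10 fibroblast and progenitor markers were also higher in Ad-Yap/Taz-KO, and 9 of 10 adipocyte markers were lower. For 14 genes of T cells, NK cells and innate lymphoid cells the sum was 163 to 617 in the 8 libraries, with 3 of 10 tested higher on HFD. Over all genes tested, 32.2% were called on HFD in either direction and 17.1% were called higher. B cell markers gave 2 of 5 higher on HFD, mast cell and granulocyte markers 2 of 5, endothelial markers 3 of 8, mesothelial markers 1 higher and 1 lower of 8, and markers of lipid-associated macrophages, of which adipocytes also express Lpl and Cd36, 6 higher and 1 lower of 8. None of the 6 dendritic cell markers was called on HFD by limma, nor had any an unadjusted p under 0.05 (0 of 6). In RNA from a whole preparation, fewer cells of a type and less RNA per cell cannot be told apart, and the part of these cells in the changes described here was not tested.

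Members differed widely in abundance. Compared per kilobase of exon, which is needed to compare genes with each other, the shared receptor chain Il6st (gp130, the signalling subunit for the IL-6 group) had the highest mean level over the 8 libraries, 714 normalized counts per kilobase, with single libraries at 649 to 834. It was followed by Il4ra, the alpha chain for IL-4 and IL-13, with 547 (277 to 784), Il1r1, the signalling receptor for IL-1, with 545 (406 to 689), and the ligand Il6 with 539 (278 to 1038). The ranges of these latter members lay largely on top of each other, so their order is not resolved. The next ranks were held by Il1b with 319, Il15ra with 319, Il10 with 289, Il17ra with 191, Il10rb with 162, Il6ra with 123, Il1rn with 119 and Il11ra1 with 111. Genes tested had a median level of 41.9 on the same scale, below these 12 members. Some high ranks came from 1 genotype: Il1b ranged from 42.5 to 1023 and Il1rn from 6.32 to 309, whereas Il6ra stayed between 114 and 132. Il11ra1 has near-identical copies in the mouse genome, and its level is uncertain because reads that align to several places were left out.

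**Figure D1:**
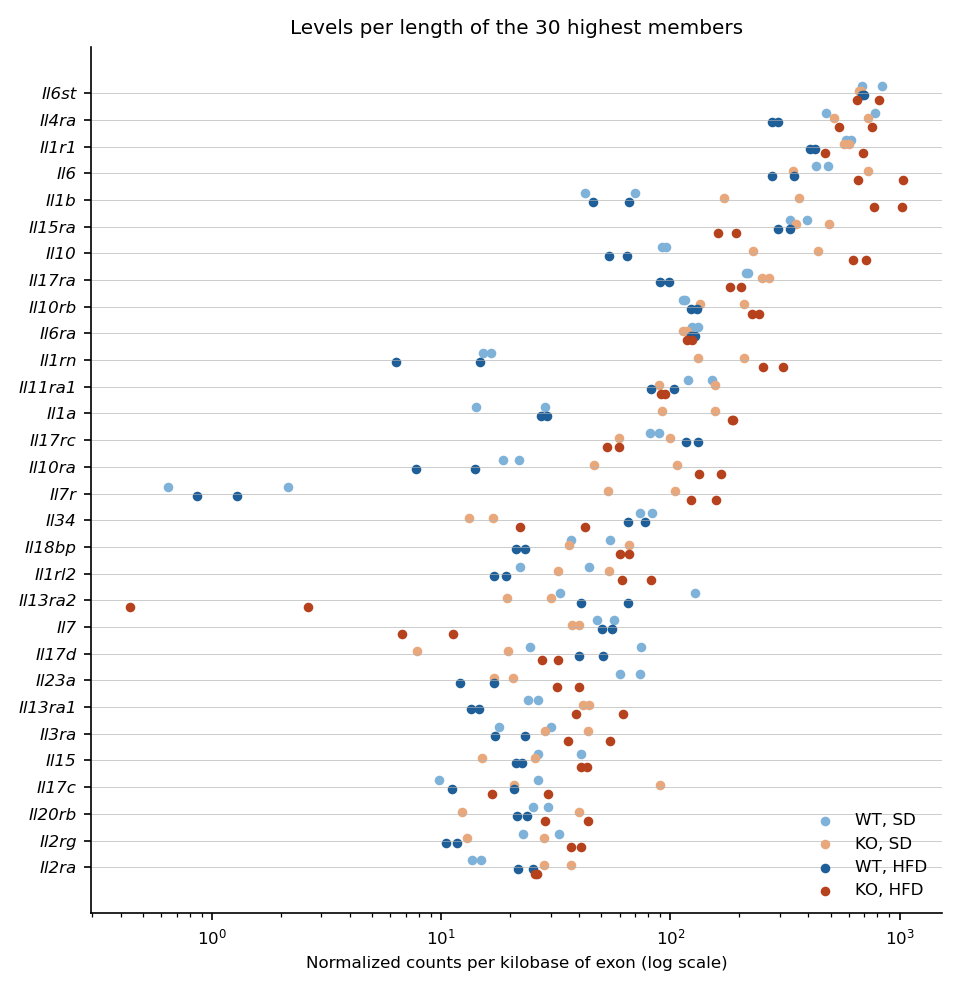
Level of the 30 most abundant members in each library, in normalized counts per kilobase of exon on a log scale, with 1 point per library and 2 libraries per group. Il6st and Il6ra form tight groups of points over all 4 groups, whereas the points of Il7r, Il1rn, Il1b and Il10 split by genotype.

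Between the genotypes, 30 of the 54 tested members changed on HFD, 24 of them higher and 6 lower in Ad-Yap/Taz-KO. A gene was called where limma gave an adjusted p of 0.05 or less (Benjamini-Hochberg, over all 18800 genes tested) and the log2 fold change was 0.59 or more, up or down. In this comparison 32.2% of all genes were called (17.1% higher and 15.1% lower) against 55.6% of the members, and the members' median log2 fold change was 1.08 against 0.10 for all genes. On SD, 9 members were called, 7 higher and 2 lower, which is 16.7% of members against 4.71% of all genes (3.21% higher and 1.5% lower). The median on SD was 0.01, and members spread to both sides of it, from 5.72 for Il7r to -2.67 for Il22ra2, which was not called (adjusted p = 0.2). These fold changes are on the scale of log2(normalized count + 1), which understates the change of low genes. The comparisons use different libraries but share the estimate of each gene's spread, since all groups are in one fit, so their calls are not independent. Called in both were 8 members (14.8%, against 3.53% of all genes): Il7r, Il1rn, Il1a, Il1b, Il10 and Il10ra were higher on both diets, Il34 was lower on both, and Il23a was lower on SD and higher on HFD.

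**Figure D2:**
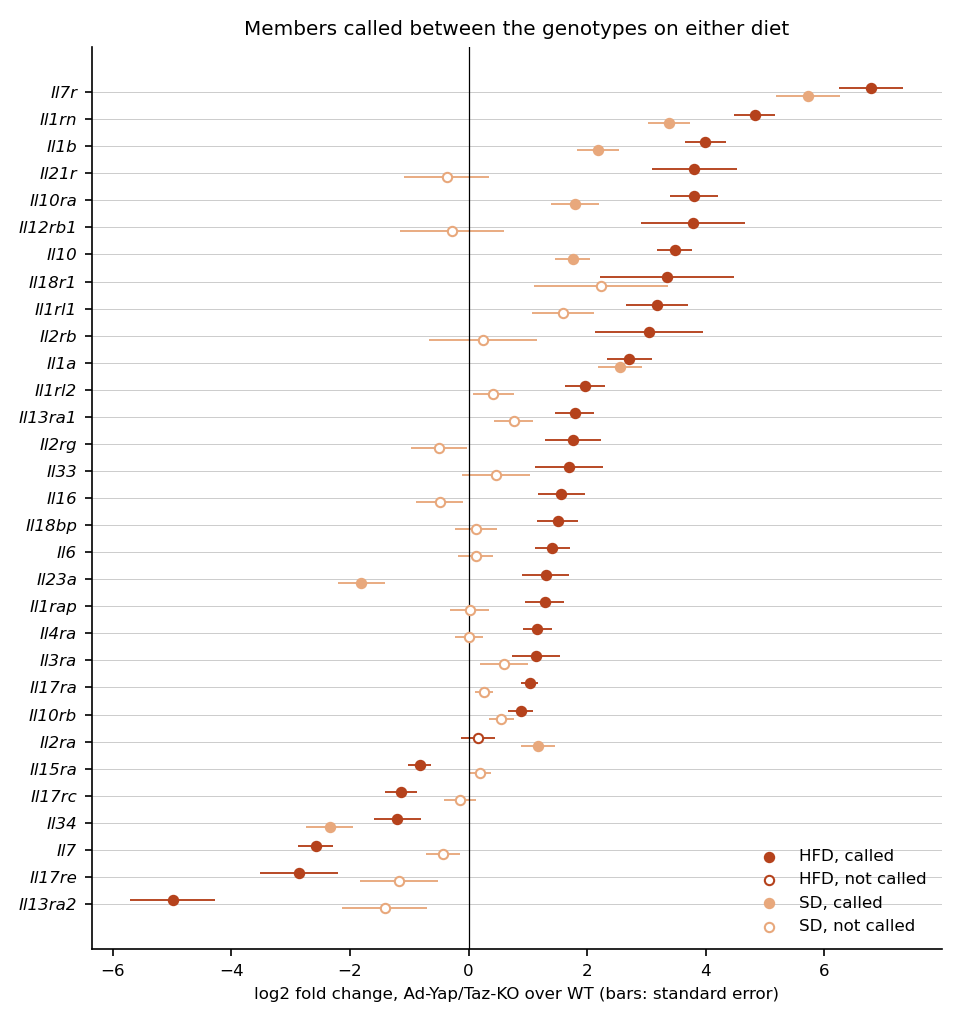
log2 fold change of Ad-Yap/Taz-KO over WT with its standard error for the 31 members called on HFD, SD or both, from 2 libraries per group. Filled points were called and open points were not; for each of the 24 members higher on HFD (dark points) the value exceeds that on SD (light points), and Il7r has the largest rise on both diets.

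Where 1 library was left out, 20 to 25 of the 30 members called on HFD kept their call and 4 to 8 of the 9 on SD, the lowest count on SD being that without WT SD replicate 2. Of the calls, 17 of 30 on HFD and 4 of 9 on SD held in each of the alternative settings in which the gene was tested. On HFD these were Il7r, Il1rn, Il1b, Il21r, Il10ra, Il10, Il1rl1, Il1a, Il1rl2, Il13ra1, Il18bp, Il6, Il4ra and Il17ra among the higher members and Il7, Il17re and Il13ra2 among the lower. On SD they were Il7r, Il1rn, Il1a and Il10. Scaling all libraries to the same total shifted the median log2 fold change of all genes on HFD by 0.38, and 29 members were then higher and 4 lower, beside 24.5% and 7.23% of all genes.

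Sequence upstream of the start is shown for the members with the largest rises on both diets for which a RefSeq promoter entry was at hand (Il7r, Il1rn, Il1b and Il1a) and for those with the largest falls on HFD (Il13ra2 and Il17re). Each window holds the 250 bases before the RefSeq start on GRCm38.p6, 5′ to 3′ on the gene's strand. Capitals mark motif letters found on either strand.
Il7r (chr15:9529877-9530126, minus strand): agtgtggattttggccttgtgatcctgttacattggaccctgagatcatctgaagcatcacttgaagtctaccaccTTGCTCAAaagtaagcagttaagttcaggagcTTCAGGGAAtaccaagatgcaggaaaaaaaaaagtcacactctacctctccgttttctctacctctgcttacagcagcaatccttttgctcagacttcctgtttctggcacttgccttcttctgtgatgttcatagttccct
Il1rn (chr2:24336610-24336859, plus strand): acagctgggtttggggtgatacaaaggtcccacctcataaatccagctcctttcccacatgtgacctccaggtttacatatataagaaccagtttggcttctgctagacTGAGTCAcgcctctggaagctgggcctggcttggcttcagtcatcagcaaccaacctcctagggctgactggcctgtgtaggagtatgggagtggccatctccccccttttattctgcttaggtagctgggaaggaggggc
Il1b (chr2:129371140-129371389, minus strand): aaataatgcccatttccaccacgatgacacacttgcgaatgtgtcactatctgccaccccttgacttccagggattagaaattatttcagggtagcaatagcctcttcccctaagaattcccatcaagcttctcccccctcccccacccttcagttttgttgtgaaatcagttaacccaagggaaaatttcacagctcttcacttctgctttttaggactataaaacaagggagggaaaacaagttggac
Il1a (chr2:129309973-129310222, minus strand): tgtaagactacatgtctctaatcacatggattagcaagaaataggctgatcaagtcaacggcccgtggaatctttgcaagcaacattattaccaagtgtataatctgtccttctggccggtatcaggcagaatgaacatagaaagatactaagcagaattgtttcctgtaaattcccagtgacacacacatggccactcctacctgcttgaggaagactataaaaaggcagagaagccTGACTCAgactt
Il13ra2 (chrX:147429193-147429442, minus strand): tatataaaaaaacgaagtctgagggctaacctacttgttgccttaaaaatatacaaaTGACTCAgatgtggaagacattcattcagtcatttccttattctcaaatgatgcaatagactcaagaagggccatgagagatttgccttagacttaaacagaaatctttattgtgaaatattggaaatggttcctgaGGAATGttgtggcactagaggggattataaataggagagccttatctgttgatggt
Il17re (chr6:113458521-113458770, plus strand): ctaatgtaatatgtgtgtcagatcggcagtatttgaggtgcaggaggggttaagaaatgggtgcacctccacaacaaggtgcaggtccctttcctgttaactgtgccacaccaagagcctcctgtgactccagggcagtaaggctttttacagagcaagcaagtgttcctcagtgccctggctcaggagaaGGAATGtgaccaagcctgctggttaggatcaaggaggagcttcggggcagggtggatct
Motifs searched were TEAD (GGAATG), the DNA partner of YAP and TAZ, AP-1 (TGANTCA), the STAT site GAS (TTCNNNGAA), C/EBP (TTGCNNAA) and PU.1 (GAGGAAGT), where N is any base.

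The capitals in the Il7r window are a C/EBP match that begins 174 bases before the start and a GAS match at 142 bases. Il1rn held an AP-1 match at 141 bases and Il1a one at 12 bases, and the Il1b window held none of the 5 motifs. Both members that fell most held a TEAD match, Il13ra2 at 56 bases and Il17re at 59 bases, and Il13ra2 also an AP-1 match at 193 bases. The Il17re start in RefSeq lies 287 bases downstream of the gene's 5′ end in the expression table. The Il17re window, with its TEAD match, is therefore inside the gene as listed there. Over all 32851 windows of this length the TEAD letters occurred in 12.6%, AP-1 in 6.75%, GAS in 7.02%, C/EBP in 9.56% and PU.1 in 2.44%. A TEAD match stood in 12 of the 73 windows of members (16.4%), which belong to 11 of the 58 members with an entry, among them Il1rn, Il1r1 and Il1rl1 (in Il1rn before a start other than the one shown), so the letters were found beside members that rose, fell or were not called. No overlap between motifs occurred in the windows shown. A match describes letters only.

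Il7r (chr15:9506161-9529876, minus strand), the alpha chain of the IL-7 receptor and also a chain of the receptor for the cytokine TSLP, showed the largest genotype difference of all members. It had 10 and 3 normalized counts in WT SD, 489 and 249 in Ad-Yap/Taz-KO SD, 6 and 4 in WT HFD, and 737 and 576 in Ad-Yap/Taz-KO HFD. No WT library reached the level of any Ad-Yap/Taz-KO library. On the log2 scale the difference was 6.79 (SE 0.55, adjusted p = 1.9e-06) on HFD and 5.72 (SE 0.55, adjusted p = 4.8e-05) on SD. Because WT levels were a few reads, the size depends on the pseudocount, from 5.67 with 8 to 7.03 with 0.1 on HFD. Crlf2, the other TSLP receptor chain, was also higher on HFD (log2 fold change 1.04, adjusted p = 0.022), where the WT libraries had 150 and 180 and the Ad-Yap/Taz-KO libraries 465 and 248.

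Its ligand Il7 moved the other way, and on HFD alone by the test. Il7 had 271 and 321 normalized counts in WT SD, 226 and 210 in Ad-Yap/Taz-KO SD, 284 and 316 in WT HFD, and 64 and 38 in Ad-Yap/Taz-KO HFD. The WT libraries on both diets lay within 271 to 321, both Ad-Yap/Taz-KO SD libraries lay below them, and the Ad-Yap/Taz-KO HFD libraries were lowest. The log2 fold change between genotypes was -2.58 (SE 0.29, adjusted p = 3.1e-05) on HFD and -0.43 (SE 0.29, adjusted p = 0.49) on SD, and the difference of these differences was itself called (-2.14, adjusted p = 0.0074).

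Of the 13 tested members of the IL-1 family, 9 rose on HFD (69.2%, against 17.1% of all genes) and none fell, in limma also not at an unadjusted p under 0.05 (0 lower, 10 higher). The family's median log2 fold change on HFD was 1.69, against 0.10 for all genes. On SD, 3 were higher (23.1%, against 3.21% of all genes). The ligand Il1b (chr2:129364570-129371139, minus strand), which is made as a precursor and cut by caspase-1, had 134 and 81 normalized counts in WT SD, 691 and 326 in Ad-Yap/Taz-KO SD, 88 and 126 in WT HFD, and 1951 and 1469 in Ad-Yap/Taz-KO HFD. The genotypes did not overlap on either diet, and both Ad-Yap/Taz-KO HFD libraries lay above both Ad-Yap/Taz-KO SD libraries. The antisense gene Il1bos shares 1.3% of its exon bases. Its log2 fold change was 3.99 (SE 0.35, adjusted p = 4.1e-06) on HFD and 2.18 (SE 0.35, adjusted p = 0.0025) on SD. The call on SD was lost without WT SD replicate 2, at 1.82.

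Il1a, the related ligand that needs no cutting to be active, had 28 and 56 normalized counts in WT SD, 310 and 182 in Ad-Yap/Taz-KO SD, 57 and 54 in WT HFD, and 366 and 370 in Ad-Yap/Taz-KO HFD. Unlike Il1b, its log2 fold change was similar on the diets, 2.71 (SE 0.38, adjusted p = 0.00017) on HFD and 2.55 (SE 0.38, adjusted p = 0.0013) on SD, and the interaction was 0.16 (SE 0.53, adjusted p = 0.87). A predicted gene, Gm14023, overlaps 11.2% of the exon bases of Il1a on the opposite strand, and whether counting used the strand of the reads is not given in the sources used here.

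Il1rn encodes the IL-1 receptor antagonist, which occupies the receptor without signalling. It had 84 and 91 normalized counts in WT SD, 1159 and 728 in Ad-Yap/Taz-KO SD, 35 and 82 in WT HFD, and 1708 and 1396 in Ad-Yap/Taz-KO HFD. As for the ligands, the genotypes were fully separated. This was a log2 fold change of 4.82 (SE 0.35, adjusted p = 8.3e-07) on HFD and 3.38 (SE 0.35, adjusted p = 8.8e-05) on SD. The ratio of Il1b to Il1rn within a library, on normalized counts, was 1.60 and 0.89 in WT SD, 0.60 and 0.45 in Ad-Yap/Taz-KO SD, 2.51 and 1.54 in WT HFD, and 1.142 and 1.052 in Ad-Yap/Taz-KO HFD. On either diet each Ad-Yap/Taz-KO library had a lower ratio than each WT library. With 2 libraries against 2, the exact two-sided permutation test cannot give a p below 0.333.

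**Figure D3:**
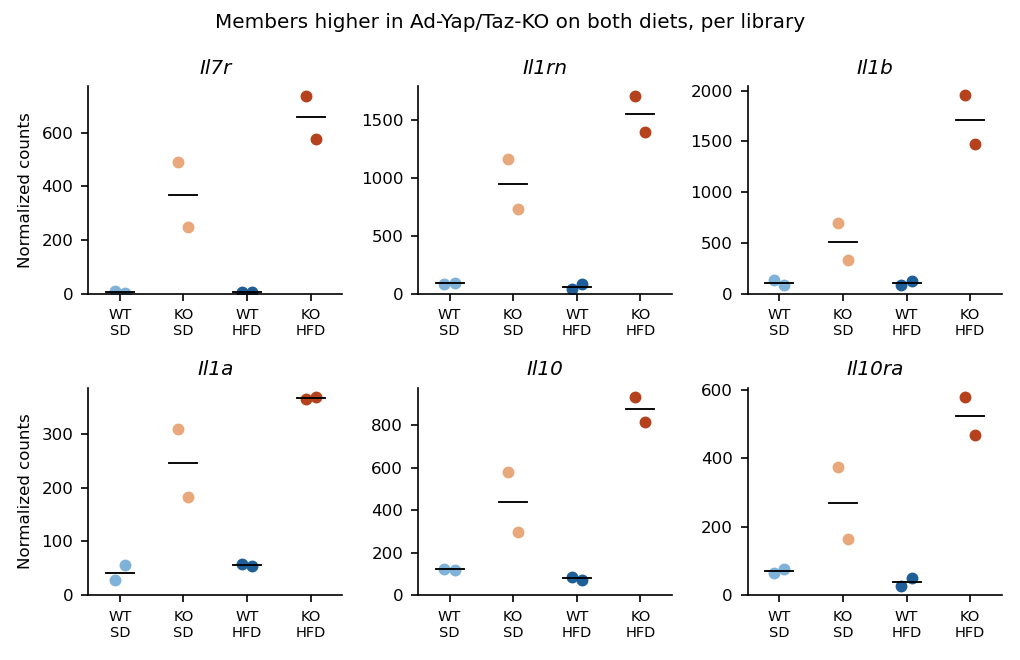
Normalized counts of the 6 members called higher in Ad-Yap/Taz-KO on both diets, with 1 point per library, 2 libraries per group and a line at their mean. In each panel the 4 Ad-Yap/Taz-KO libraries lie above the 4 WT libraries, and the Ad-Yap/Taz-KO HFD points are the highest.

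The receptors of the family behaved unevenly. Il1r1, the receptor through which both ligands signal, was abundant and was not called between the genotypes: 3698 and 3909 normalized counts in WT SD, 3643 and 3811 in Ad-Yap/Taz-KO SD, 2714 and 2583 in WT HFD, and 2998 and 4386 in Ad-Yap/Taz-KO HFD. Its log2 fold change was 0.45 (SE 0.17, adjusted p = 0.062) on HFD and -0.03 (SE 0.17, adjusted p = 0.96) on SD. The value on HFD passed both thresholds with equal totals (0.84) and on leaving out Ad-Yap/Taz-KO HFD replicate 1 (0.73). The decoy Il1r2 was low, at 4 to 33 normalized counts, with a log2 fold change of 0.93 (SE 0.86, adjusted p = 0.43) on HFD. Il1rap, the accessory chain shared by the receptors for IL-1, IL-33 and IL-36, fell in WT on HFD and was higher in Ad-Yap/Taz-KO on that diet. It had 120 and 157 normalized counts in WT SD, 116 and 167 in Ad-Yap/Taz-KO SD, 54 and 56 in WT HFD, and 123 and 149 in Ad-Yap/Taz-KO HFD, so that WT HFD was the group set apart (log2 fold change between genotypes on HFD 1.28, SE 0.33, adjusted p = 0.0091). That call was lost without Ad-Yap/Taz-KO HFD replicate 2, at 1.15, and with the WT HFD libraries averaged, at 1.28.

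The IL-33 and IL-36 receptors rose as well. Il1rl1 (ST2, the receptor for the alarmin IL-33) had 32 and 14 normalized counts in WT SD, 68 and 64 in Ad-Yap/Taz-KO SD, 11 and 13 in WT HFD, and 125 and 108 in Ad-Yap/Taz-KO HFD. Ad-Yap/Taz-KO was above WT on both diets, and the log2 fold change was 3.18 (SE 0.52, adjusted p = 6e-04) on HFD and 1.59 (SE 0.52, adjusted p = 0.13) on SD. Il1rl2, the receptor for IL-36, rose on HFD by a log2 fold change of 1.97 (SE 0.34, adjusted p = 0.00083), from 130 and 116 to 417 and 558. The ligand Il33 had 38 and 49 in Ad-Yap/Taz-KO HFD, where WT HFD had 16 and 10 (log2 fold change 1.69, SE 0.57, adjusted p = 0.037). The Il33 call was lost without any one of the 4 HFD libraries: 2.00 without WT HFD replicate 1, 1.38 without WT HFD replicate 2, 1.87 when Ad-Yap/Taz-KO HFD replicate 1 was left out and 1.51 without Ad-Yap/Taz-KO HFD replicate 2. It was also lost with the WT HFD libraries averaged (1.66, adjusted p = 0.11), without the filter on low values (adjusted p = 0.071) and in a fit of the HFD groups alone (adjusted p = 0.055). Il1r2, Il1r1, Il1rl2, Il1rl1, Il18r1 and Il18rap sit side by side on chromosome 1, and 3 of these 6 were called on HFD (32.2% of all genes were).

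For IL-18, an activator of T and NK cells, the ligand Il18 was low (3 to 29 normalized counts) and not called, whereas its soluble inhibitor Il18bp rose on HFD. Il18bp had 111 and 165 normalized counts in WT SD, 200 and 109 in Ad-Yap/Taz-KO SD, 70 and 64 in WT HFD, and 183 and 200 in Ad-Yap/Taz-KO HFD. The genotypes overlapped on SD and were apart on HFD (log2 fold change 1.501, SE 0.35, adjusted p = 0.0053). Il18r1, the ligand-binding receptor chain, had 1 and 0 in WT HFD and 7 and 25 in Ad-Yap/Taz-KO HFD, a call that rests on few reads (log2 fold change 3.35, SE 1.13, adjusted p = 0.036, and 1.39 with a pseudocount of 8). It was lost without WT HFD replicate 1 (3.85), without WT HFD replicate 2 (2.85) and without Ad-Yap/Taz-KO HFD replicate 2 (2.5), with the WT HFD libraries averaged (adjusted p = 0.11), with a pseudocount of 8 (adjusted p = 0.051), without the filter on low values (adjusted p = 0.073) and in a fit of the HFD groups alone (adjusted p = 0.056).

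Genes that process IL-1 and IL-18 were among the lists taken from outside the members. Of 8, 6 rose in Ad-Yap/Taz-KO on HFD and none fell (7 higher and 0 lower at an unadjusted p under 0.05 in limma), beside 32.2% of all genes called: the inflammasome sensors Nlrp3 (log2 fold change 3.65, adjusted p = 8.1e-07), Nlrc4 (4.96, adjusted p = 4.4e-05), Nlrp1b (3.85, adjusted p = 0.0018) and Aim2 (3.01, adjusted p = 0.00036), the adaptor Pycard (1.21, adjusted p = 0.0027) and the pore former Gsdmd (2.74, adjusted p = 0.00012). On SD, Nlrp3, Nlrc4 and Casp1 were called, all higher (37.5%, against 4.71% of all genes). Casp1, which encodes caspase-1, was not among the 6 called on HFD. Signalling proteins below the IL-1 receptors split instead. Of 14, Peli1, Irak4 and Myd88 were higher on HFD with log2 fold changes of 1.12, 0.77 and 0.71, and Irak1, Irak2, Map3k7 and Tab3 were lower, at -0.69, -0.75, -0.65 and -1.21.

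Il10, an anti-inflammatory cytokine, and its ligand-binding chain Il10ra rose together. Il10 had 125 and 120 normalized counts in WT SD, 579 and 299 in Ad-Yap/Taz-KO SD, 85 and 71 in WT HFD, and 936 and 817 in Ad-Yap/Taz-KO HFD. Il10ra had 65 and 76 in WT SD, 374 and 163 in Ad-Yap/Taz-KO SD, 27 and 49 in WT HFD, and 579 and 468 in Ad-Yap/Taz-KO HFD. For both genes each Ad-Yap/Taz-KO library was above each WT library. On HFD the log2 fold changes were 3.48 (SE 0.29, adjusted p = 2.9e-06) for Il10 and 3.80 (SE 0.40, adjusted p = 2e-05) for Il10ra, and on SD 1.76 (SE 0.29, adjusted p = 0.0032) and 1.80 (SE 0.40, adjusted p = 0.022). The Il10ra call on SD was lost without WT SD replicate 1 (1.69), without WT SD replicate 2 (1.91) and without Ad-Yap/Taz-KO SD replicate 1 (1.20), and without the filter on low values (adjusted p = 0.11).

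Il10rb, the second chain, which also serves the interferon-lambda and IL-22 receptors, changed less. It had 441 and 434 normalized counts in WT SD, 801 and 511 in Ad-Yap/Taz-KO SD, 499 and 470 in WT HFD, and 923 and 866 in Ad-Yap/Taz-KO HFD. Its log2 fold change on HFD was 0.88 (SE 0.21, adjusted p = 0.0064), and the call was lost without WT HFD replicate 2, at 0.84, and with the WT HFD libraries averaged, at 0.88. Gm21970 overlaps 14.9% of its exon bases on the same strand. Among the other 2 tested members of the IL-10 family, Il20rb and Il22ra2, neither was called in any comparison.

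The IL-6 group held the most abundant member and the fewest calls on HFD. Its median log2 fold change on HFD was nonetheless 1.37, against 0.10 for all genes. Il6st had 9262 and 7618 normalized counts in WT SD, 7512 and 7406 in Ad-Yap/Taz-KO SD, 7597 and 7782 in WT HFD, and 7200 and 9012 in Ad-Yap/Taz-KO HFD. All groups overlapped or nearly so, and the log2 fold change was 0.07 (SE 0.16, adjusted p = 0.78) on HFD and -0.17 (SE 0.16, adjusted p = 0.66) on SD. The ligand-binding chain Il6ra lay between 985 and 1141 in all 8 libraries, with a log2 fold change of -0.05 (SE 0.15, adjusted p = 0.82) on HFD, or 0.33 with equal totals. Il11ra1, which binds IL-11, had a log2 fold change of 0.002 (SE 0.26, adjusted p = 1) on HFD.

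Il6 itself was the only called member among 9 in this group on HFD (11.1%, against 32.2% of all genes). Of the 9, 4 were higher and none was lower at an unadjusted p under 0.05 in limma. With equal totals Il11 and Il31ra were called higher too, beside 24.5% of all genes. Il6 had 1183 and 1053 normalized counts in WT SD, 1767 and 831 in Ad-Yap/Taz-KO SD, 676 and 839 in WT HFD, and 1599 and 2520 in Ad-Yap/Taz-KO HFD. On SD the WT libraries lay between the Ad-Yap/Taz-KO libraries, and on HFD both Ad-Yap/Taz-KO libraries were above both WT libraries. Between genotypes the log2 fold change was 1.41 (SE 0.30, adjusted p = 0.0032) on HFD and 0.12 (SE 0.30, adjusted p = 0.89) on SD, where it was -0.43 without Ad-Yap/Taz-KO SD replicate 1. The interaction was 1.29 (SE 0.42, adjusted p = 0.053). It was called with a pseudocount of 8 (1.29, adjusted p = 0.043), with equal totals (1.72, adjusted p = 0.03), without Ad-Yap/Taz-KO SD replicate 1 (1.84, adjusted p = 0.0054) and without Ad-Yap/Taz-KO HFD replicate 1 (1.62, adjusted p = 0.017). Il31ra was close to the threshold on HFD (log2 fold change 1.38, SE 0.52, adjusted p = 0.056). It was called with a pseudocount of 8 (1.18, adjusted p = 0.049) and with equal totals (1.75, adjusted p = 0.026).

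The common gamma chain cytokines, IL-4 and IL-13 and the receptors of these made up the next group, with 6 of 12 tested members higher and 3 lower on HFD (75%, against 32.2% of all genes) and a median log2 fold change of 1.04. Il4ra had 4708 and 2866 normalized counts in WT SD, 4363 and 3119 in Ad-Yap/Taz-KO SD, 1771 and 1665 in WT HFD, and 3255 and 4526 in Ad-Yap/Taz-KO HFD. WT HFD was the low group, and the other groups overlapped. The log2 fold change between genotypes on HFD was 1.16 (SE 0.24, adjusted p = 0.0026), and HFD against SD in WT was -1.10 (SE 0.24, adjusted p = 0.0091). These comparisons share the WT HFD libraries, so they are not independent. The diet call was lost without WT SD replicate 1 (-0.74), without WT HFD replicate 1 (-1.141) and without WT HFD replicate 2 (-1.05).

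Il13ra1, which pairs with Il4ra to bind IL-13, had 98 and 89 normalized counts in WT SD, 154 and 164 in Ad-Yap/Taz-KO SD, 54 and 50 in WT HFD, and 144 and 230 in Ad-Yap/Taz-KO HFD, and was called on HFD (log2 fold change 1.79, SE 0.33, adjusted p = 0.0012). The decoy for the same ligand, Il13ra2, was the member that fell most. It had 75 and 293 normalized counts in WT SD, 69 and 44 in Ad-Yap/Taz-KO SD, 149 and 93 in WT HFD, and 6 and 1 in Ad-Yap/Taz-KO HFD. The Ad-Yap/Taz-KO HFD libraries thus held a few reads each, and the log2 fold change of -4.99 (SE 0.71, adjusted p = 0.00022) ranged from -3.49 with a pseudocount of 8 to -5.51 with 0.1. On SD it was -1.41 (SE 0.71, adjusted p = 0.34). The ligands Il4 and Il13 were at 2 to 27 and 0 to 15 normalized counts; Il4 was not called and Il13 was too low to test.

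Il2rg, the common gamma chain itself, had 78 and 54 normalized counts in WT SD, 67 and 31 in Ad-Yap/Taz-KO SD, 28 and 25 in WT HFD, and 88 and 97 in Ad-Yap/Taz-KO HFD. It was higher in Ad-Yap/Taz-KO on HFD (log2 fold change 1.77, SE 0.47, adjusted p = 0.012) but not without WT HFD replicate 2 (1.69) or Ad-Yap/Taz-KO HFD replicate 2 (1.697), nor with the WT HFD libraries averaged (1.76), and 30.5% of its exon bases are shared with Gm20489 on the same strand. Il21r, which binds the T cell cytokine IL-21, had 33 and 83 in WT SD, 81 and 20 in Ad-Yap/Taz-KO SD, 5 and 4 in WT HFD, and 57 and 100 in Ad-Yap/Taz-KO HFD. WT HFD was again the low group (log2 fold change 3.81, SE 0.72, adjusted p = 0.0015). Il2rb, the beta chain for IL-2 and IL-15, had 16 and 1 in WT HFD and 49 and 45 in Ad-Yap/Taz-KO HFD (log2 fold change 3.04, SE 0.91, adjusted p = 0.021). Since the size comes from 1 library, the value without WT HFD replicate 2 was 1.496 and no longer called, and the call was also lost on leaving out Ad-Yap/Taz-KO HFD replicate 1 (2.98) or Ad-Yap/Taz-KO HFD replicate 2 (3.10), with the WT HFD libraries averaged (2.34, adjusted p = 0.057), without the filter on low values (adjusted p = 0.081) and in a fit of the HFD groups alone (adjusted p = 0.058).

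Il2ra, the high-affinity IL-2 receptor chain, was called on SD and not on HFD. It had 78 and 85 normalized counts in WT SD, 161 and 211 in Ad-Yap/Taz-KO SD, 143 and 123 in WT HFD, and 149 and 147 in Ad-Yap/Taz-KO HFD. The low group here was WT SD. The log2 fold change was 1.17 (SE 0.29, adjusted p = 0.036) on SD and 0.16 (SE 0.29, adjusted p = 0.71) on HFD, and the difference between the diets was not called (adjusted p = 0.1). The SD call was lost without WT SD replicate 1 (1.11), without WT SD replicate 2 (1.23) and without Ad-Yap/Taz-KO SD replicate 2 (0.97). It was also lost with the replicate block (1.17, adjusted p = 0.062), without the filter on low values (adjusted p = 0.064), with the WT HFD libraries averaged (adjusted p = 0.067) and in a fit of the SD groups alone (adjusted p = 0.094).

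Il15ra presents IL-15 to neighbouring cells and was the most abundant of the members called lower in Ad-Yap/Taz-KO on HFD. It had 1752 and 1483 normalized counts in WT SD, 1563 and 2185 in Ad-Yap/Taz-KO SD, 1309 and 1476 in WT HFD, and 857 and 717 in Ad-Yap/Taz-KO HFD. Both Ad-Yap/Taz-KO HFD libraries lay below all others. The log2 fold change was -0.83 (SE 0.19, adjusted p = 0.005) on HFD, and the call was lost without WT HFD replicate 2 (-0.74) and with equal totals (-0.44). In Ad-Yap/Taz-KO, HFD against SD gave -1.24 (SE 0.19, adjusted p = 0.012). The ligand Il15 was not called, with a log2 fold change of 0.93 (SE 0.42, adjusted p = 0.11) on HFD, though it was with equal totals (1.305, adjusted p = 0.039).

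**Figure D4:**
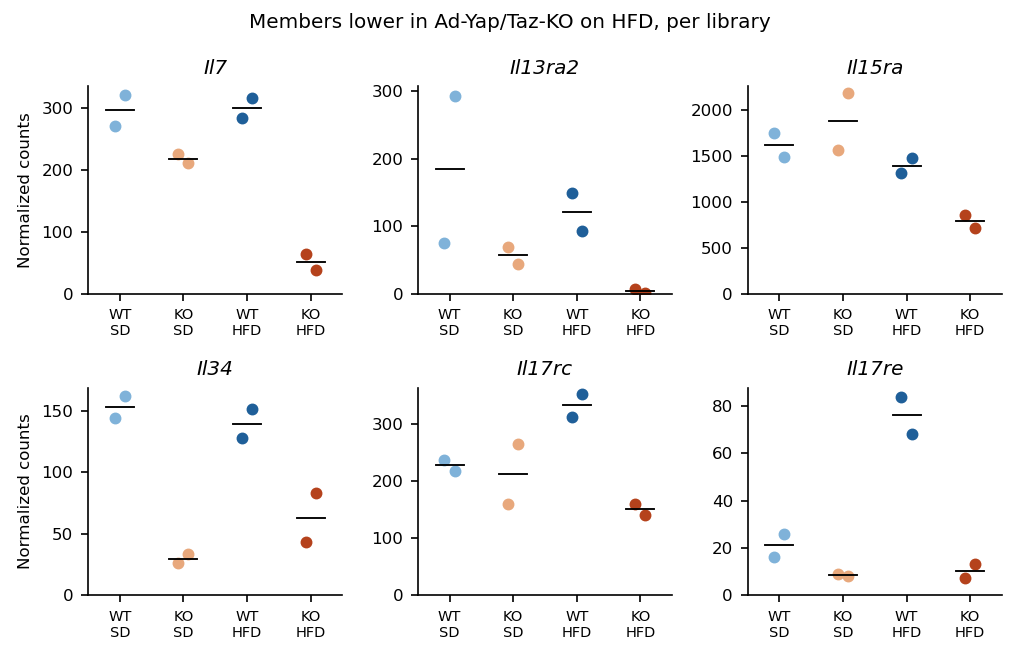
Normalized counts of the 6 members called lower in Ad-Yap/Taz-KO on HFD, with 1 point per library, 2 libraries per group and a line at their mean. Il7, Il13ra2 and Il15ra were lowest in Ad-Yap/Taz-KO HFD, Il34 was low in Ad-Yap/Taz-KO on both diets, and Il17re was highest in WT HFD.

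Receptors of the IL-17 family included members on both sides. Il17ra, the chain shared by most IL-17 receptors, had 1858 and 1884 normalized counts in WT SD, 2172 and 2323 in Ad-Yap/Taz-KO SD, 779 and 852 in WT HFD, and 1568 and 1768 in Ad-Yap/Taz-KO HFD. Both WT HFD libraries lay below every other library (log2 fold change between genotypes on HFD 1.03, SE 0.15, adjusted p = 0.00023, and HFD against SD in WT -1.20, SE 0.15, adjusted p = 0.00046). Both calls held in the alternatives examined.

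Il17rc and Il17re, its partners for IL-17A and IL-17F and for the epithelial cytokine IL-17C, went down. These genes are neighbours on chromosome 6 (chr6:113471427-113483140 and chr6:113458484-113470758, both plus strand). Il17rc had 237 and 217 normalized counts in WT SD, 160 and 265 in Ad-Yap/Taz-KO SD, 312 and 353 in WT HFD, and 160 and 141 in Ad-Yap/Taz-KO HFD. Il17re had 16 and 26 in WT SD, 9 and 8 in Ad-Yap/Taz-KO SD, 84 and 68 in WT HFD, and 7 and 13 in Ad-Yap/Taz-KO HFD. For both, WT HFD was the highest group and Ad-Yap/Taz-KO HFD lay below it, by a log2 fold change of -1.138 (SE 0.27, adjusted p = 0.0063) for Il17rc and -2.85 (SE 0.65, adjusted p = 0.005) for Il17re. The Il17rc call was lost without WT HFD replicate 2, at -1.05. HFD against SD in WT gave 1.84 (SE 0.65, adjusted p = 0.065) for Il17re, which was not called, though it was with a pseudocount of 8 (1.55, adjusted p = 0.027) and in a fit of the WT groups alone (adjusted p = 0.015). The interactions were -1.0 (adjusted p = 0.089) for Il17rc and -1.68 (adjusted p = 0.22) for Il17re. Among 7 tested genes of IL-17 receptor signalling and its targets, limma called none on HFD, and 1 had an unadjusted p under 0.05.

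Il23a and its receptor chain Il12rb1 were lower on HFD than on SD in WT, while in Ad-Yap/Taz-KO the diet difference was not called for either (log2 fold change 0.93, adjusted p = 0.29 for Il23a and 0.49, adjusted p = 0.83 for Il12rb1). Il23a encodes the p19 subunit, which joins the p40 subunit encoded by Il12b to form IL-23. It had 135 and 165 normalized counts in WT SD, 38 and 46 in Ad-Yap/Taz-KO SD, 27 and 38 in WT HFD, and 90 and 72 in Ad-Yap/Taz-KO HFD. Hence Ad-Yap/Taz-KO was the lower genotype on SD (log2 fold change -1.81, SE 0.40, adjusted p = 0.019) and the higher one on HFD (1.30, SE 0.40, adjusted p = 0.023). HFD against SD in WT gave -2.18 (SE 0.40, adjusted p = 0.0039), and the interaction of genotype and diet was 3.11 (SE 0.56, adjusted p = 0.006). The interaction held in each of 16 alternatives, with values of 2.80 to 3.53. The separate genotype calls were weaker. That on HFD was lost without WT HFD replicate 1 (1.063), Ad-Yap/Taz-KO HFD replicate 1 (1.143) or Ad-Yap/Taz-KO HFD replicate 2 (1.46) and with the WT HFD libraries averaged (1.28), and that on SD without WT SD replicate 1 (-1.96), WT SD replicate 2 (-1.67) or Ad-Yap/Taz-KO SD replicate 1 (-1.68) and without the filter on low values (adjusted p = 0.051).

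Il12rb1, a chain of the receptors for both IL-12 and IL-23, had 54 and 106 normalized counts in WT SD, 72 and 54 in Ad-Yap/Taz-KO SD, 1 and 20 in WT HFD, and 56 and 138 in Ad-Yap/Taz-KO HFD. The WT HFD libraries were the lowest but differed widely from each other. The log2 fold change between genotypes on HFD was 3.78 (SE 0.88, adjusted p = 0.0055), or 2.61 with a pseudocount of 8, and it was not called without Ad-Yap/Taz-KO HFD replicate 2 (3.14). It was 2.08 without WT HFD replicate 1 and 5.48 without WT HFD replicate 2, both called. Il12b had 8 and 17 in WT SD and 79 and 37 in Ad-Yap/Taz-KO SD, a log2 fold change of 2.12 (SE 0.63, adjusted p = 0.087) that was not called. Il12rb2 was at 7 to 25 normalized counts and not called in any comparison, and 40% of its exon bases overlap Serbp1 on the opposite strand. Il12a and Il23r were too low to test.

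Il34 encodes a ligand of the macrophage growth factor receptor CSF1R that is unrelated in sequence to the other ligand, CSF1. It had 144 and 162 normalized counts in WT SD, 26 and 33 in Ad-Yap/Taz-KO SD, 128 and 151 in WT HFD, and 43 and 83 in Ad-Yap/Taz-KO HFD. Every Ad-Yap/Taz-KO library was below every WT library. Il34 had a log2 fold change of -2.34 (SE 0.40, adjusted p = 0.0035) on SD and -1.20 (SE 0.40, adjusted p = 0.033) on HFD, and the difference between the diets was not called (1.139, SE 0.56, adjusted p = 0.17). The call on SD was lost without WT SD replicate 2 (-2.26), and that on HFD without WT HFD replicate 1 (-1.32), WT HFD replicate 2 (-1.09) or Ad-Yap/Taz-KO HFD replicate 1 (-0.74), with the WT HFD libraries averaged (-1.21), with equal totals (-0.82), without the filter on low values (adjusted p = 0.062) and in a fit of the HFD groups alone (adjusted p = 0.053). The direction was the same throughout. The receptor Csf1r, itself 1 of the macrophage markers, rose on both diets (log2 fold change 3.59 on HFD and 1.77 on SD, adjusted p = 3.8e-07 and 0.00063), and Csf1 rose on HFD (0.83, adjusted p = 0.017).

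Il16, which is made by lymphocytes as a precursor and acts on CD4, had 97 and 113 normalized counts in WT SD, 92 and 60 in Ad-Yap/Taz-KO SD, 33 and 25 in WT HFD, and 89 and 85 in Ad-Yap/Taz-KO HFD. As with Il4ra and Il17ra, WT HFD was the low group (log2 fold change between genotypes on HFD 1.57, SE 0.40, adjusted p = 0.0088, lost without WT HFD replicate 2 at 1.37). Stard5 overlaps 15.3% of its exon bases on the opposite strand. Il3ra, which binds IL-3, had 51 and 69 in WT HFD and 162 and 106 in Ad-Yap/Taz-KO HFD (log2 fold change 1.13, SE 0.41, adjusted p = 0.047). That call was lost without WT HFD replicate 1 (0.92), WT HFD replicate 2 (1.34), Ad-Yap/Taz-KO HFD replicate 1 (0.83) or Ad-Yap/Taz-KO HFD replicate 2 (1.43), and with the WT HFD libraries averaged (1.11), a pseudocount of 0.1 (adjusted p = 0.053), no filter on low values (adjusted p = 0.092) or a fit of the HFD groups alone (adjusted p = 0.05).

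By role, 7 of 19 tested ligands were higher and 2 lower in Ad-Yap/Taz-KO on HFD, against 15 and 3 of 30 signalling receptor chains and 2 and 1 of 5 soluble antagonists or decoys. These shares, 47.4%, 60% and 60% called, were each above the 32.2% of all genes, and were not compared with each other by a test. On SD, 3 ligands were higher and 2 lower, 3 receptor chains were higher, and of the antagonists Il1rn was higher, beside 3.21% of all genes higher and 1.5% lower.

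Diet alone changed fewer members. In WT, 7 members fell from SD to HFD and none rose (14 lower and 3 higher at an unadjusted p under 0.05 in limma), which is 13% of those tested against 18% of all genes (8.74% higher and 9.22% lower). With equal totals 18 members were lower and 0 higher, beside 18.9% of all genes lower and 2.48% higher, so whether the members' share lay below or above that of all genes turned on the scaling. The 7 called with the values as deposited were Il4ra, Il17ra, Il1rap, Il16, Il23a, Il21r and Il12rb1. The 7 are also all called higher in Ad-Yap/Taz-KO on HFD, a comparison that uses the same WT HFD libraries. In the same comparison 9 of 12 macrophage markers were lower, as were 4 of 8 endothelial markers, 4 of 10 fibroblast and progenitor markers and 2 of 5 B cell markers. Markers of lipid-associated macrophages went both ways, with 2 higher and 2 lower of 8, and 2 of 10 adipocyte markers were higher. Among markers of T cells, NK cells and innate lymphoid cells 1 of 10 was lower, as were 1 of 5 mast cell and granulocyte markers and 1 of 8 mesothelial markers. None of the 6 dendritic cell markers was called. The diet differences were -1.83 (SE 0.40, adjusted p = 0.0087) for Il16, -1.30 (SE 0.33, adjusted p = 0.017) for Il1rap, -3.29 (SE 0.72, adjusted p = 0.0091) for Il21r and -3.57 (SE 0.88, adjusted p = 0.016) for Il12rb1. The call for Il1rap was lost without any one of the 4 WT libraries (-1.497 without SD replicate 1, -1.11 without SD replicate 2, -1.28 without HFD replicate 1 and -1.33 without HFD replicate 2). That for Il12rb1 was lost without WT SD replicate 1 (-4.04), WT SD replicate 2 (-3.09) or WT HFD replicate 1 (-1.87), that for Il16 without WT SD replicate 1 (-1.94), WT SD replicate 2 (-1.72) or WT HFD replicate 2 (-1.64), and that for Il21r without WT SD replicate 2 (-2.63) or WT HFD replicate 2 (-3.15). With the WT HFD libraries averaged the calls for Il4ra (adjusted p = 0.085), Il16 (0.059), Il1rap (0.1) and Il21r (0.061) were lost, and without the filter on low values those for Il4ra (0.058), Il12rb1 (0.084) and Il21r (0.051). The number of calls was 3 without WT SD replicate 1, 3 without WT SD replicate 2 and 4 without WT HFD replicate 2.

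In Ad-Yap/Taz-KO, 4 members were called from SD to HFD, 7.41% against 1.07% of all genes (0.383% higher and 0.691% lower). Il1b rose by a log2 fold change of 1.83 (SE 0.35, adjusted p = 0.031), and Il7, Il13ra2 and Il15ra fell, by 2.12 (SE 0.29, adjusted p = 0.0068) for Il7 and by 3.91 (SE 0.71, adjusted p = 0.025) for Il13ra2. All 4 calls were lost without Ad-Yap/Taz-KO SD replicate 2, at 1.29 for Il1b, -2.17 for Il7, -4.23 for Il13ra2 and -0.99 for Il15ra, although 7 members still had an unadjusted p under 0.05 in limma. Without Ad-Yap/Taz-KO HFD replicate 2, the calls of Il1b (2.04), Il13ra2 (-3.003) and Il15ra (-1.11) were lost and 1 member remained called, and without Ad-Yap/Taz-KO HFD replicate 1 that of Il1b (1.63) was lost. Without Ad-Yap/Taz-KO SD replicate 1, 9 were called. Without Ad-Yap/Taz-KO SD replicate 2 the calls over all genes also fell, from 202 to 14. In the same comparison 2 of 10 fibroblast and progenitor markers and 1 of 12 macrophage markers were called higher, and no other marker list gave a call. At an unadjusted p under 0.05 in limma, 7 of each of these 2 lists were higher and 8 of 10 adipocyte markers were lower. The part of these cells was not tested.

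The test of whether the genotype difference depended on diet called 14 members, 11 with a larger difference towards Ad-Yap/Taz-KO on HFD and 3 with the opposite sign, 25.9% against 17.4% of all genes (8.69% and 8.73%). With equal totals the split was 19 and 2, beside 13.8% and 3.27% of all genes. Most of these calls were lost when 1 of 6 libraries was left out: of the 14, 1 remained without WT SD replicate 1 (Il23a), 2 without Ad-Yap/Taz-KO SD replicate 2, 3 without WT HFD replicate 1, 4 without Ad-Yap/Taz-KO HFD replicate 2, 4 without WT HFD replicate 2 and 6 without WT SD replicate 2, and 2 with the WT HFD libraries averaged. Without WT SD replicate 1 the calls over all genes fell as well, from 3274 to 482, while values moved unevenly: Il10 (1.69, from 1.72), Il16 (2.16, from 2.05) and Il17ra (0.78, from 0.77) moved little, whereas Il13ra2 (-2.60), Il1rl2 (1.05), Il4ra (0.80) and Il1b (1.46) came nearer to zero and Il21r (4.82) moved away from it.

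The 24 members that rose on HFD were also set against the summed macrophage markers of the same library. In this ratio every Ad-Yap/Taz-KO library was above every WT library for 2 members and below for 12, and for 10 the genotypes overlapped. The sum was itself higher in every Ad-Yap/Taz-KO library than in every WT library, so a member that rose less than the sum has a lower ratio. No such count was made over all genes, so the split describes only how far each member rose against the sum. Il7r had 0.48 to 1.67 normalized counts per 1000 of the summed markers in the 4 WT libraries and 14.3 to 22.8 in the 4 Ad-Yap/Taz-KO libraries. Il1rn had 9.76 to 21.6 in WT and 38.4 to 52.8 in Ad-Yap/Taz-KO. For both genes the rise was thus larger than that of the markers. Il1b per 1000 markers was 13.1 to 33.2 in the 4 WT libraries, 18.7 and 22.9 in Ad-Yap/Taz-KO SD, and 48.3 and 60.3 in Ad-Yap/Taz-KO HFD, so it stood out in the last group. Il10 stayed within 17.2 to 28.9 in all libraries, and Il10ra was 7.53 to 12.9 in WT and 9.35 to 17.9 in Ad-Yap/Taz-KO. Il6, Il4ra and Il17ra were among the 12 that went the other way: for Il6 the WT libraries held 170 to 221 and the Ad-Yap/Taz-KO libraries 47.7 to 82.9, for Il4ra 439 to 749 and 101 to 179, and for Il17ra 217 to 304 and 48.4 to 133. These ratios are descriptions, since the markers were not shown to have a fixed level per macrophage.

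**Figure D5:**
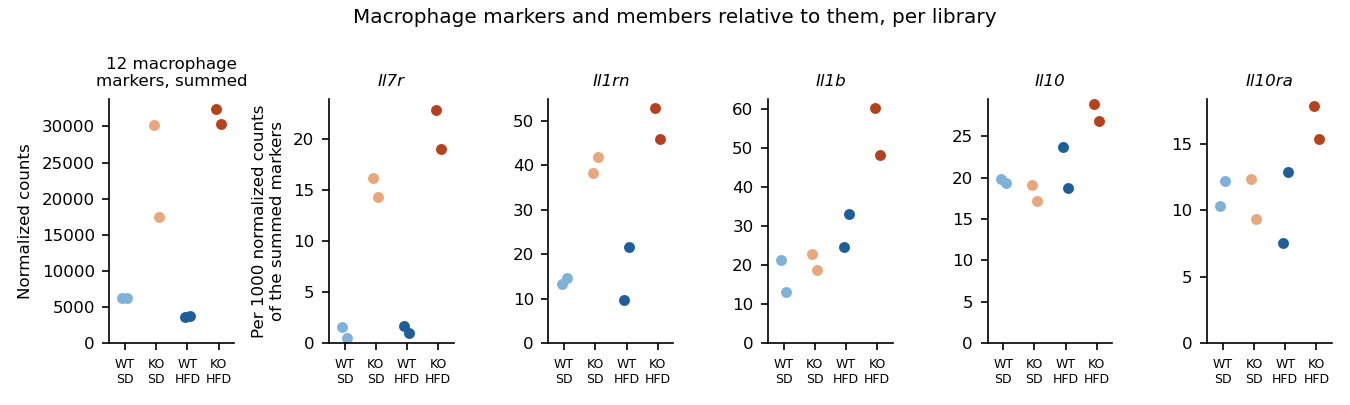
Left, summed normalized counts of 12 macrophage markers in each library; other panels, normalized counts of a member per 1000 of that sum, with 1 point per library and 2 libraries per group. The ratios of Il7r and Il1rn were higher in all Ad-Yap/Taz-KO libraries, that of Il1b in Ad-Yap/Taz-KO HFD, and the WT values of Il10 lay within the range of the Ad-Yap/Taz-KO values.

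Of the shared signalling machinery, the 4 JAK kinases gave no call between genotypes on either diet in limma, with 2 higher on HFD and 0 on SD at an unadjusted p under 0.05. Called on HFD were 3 of 7 STAT factors (42.9%), 5 of 15 inhibitors of cytokine signalling (33.3%) and 11 of 21 partner chains (52.4%), beside 32.2% of all genes, so that the share of the inhibitors was near that of all genes. Among the STAT factors, Stat2 (log2 fold change 0.72, adjusted p = 0.0067) and Stat4 (3.22, adjusted p = 0.045) were higher on HFD and Stat5b (-0.67, adjusted p = 0.008) was lower. Stat4 had 8 and 0 normalized counts in WT HFD and 26 and 28 in Ad-Yap/Taz-KO HFD. Among the inhibitors, the blood-cell phosphatase Ptpn6 rose most on HFD (4.99, adjusted p = 8.4e-06), followed by Socs2 (1.52, adjusted p = 0.0026), Socs1 (1.07, adjusted p = 0.034) and Cish (0.88, adjusted p = 0.016), and the widely expressed phosphatase Ptpn11 was lower (-1.28, adjusted p = 0.00023). Partner cytokines and receptor chains that lack an Il symbol numbered 21 tested, of which 11 rose on HFD and none fell (13 higher and 0 lower at an unadjusted p under 0.05 in limma). They included the shared beta chains for IL-3, IL-5 and GM-CSF, Csf2rb (1.43, adjusted p = 0.0015) and Csf2rb2 (2.74, adjusted p = 6e-05), the GM-CSF receptor chain Csf2ra (2.60, adjusted p = 9.8e-06) and the IL-6-type cytokine Clcf1 (3.20, adjusted p = 1.8e-06).

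The 19 members below the filter were Il1f5, Il1f6, Il1f8, Il1f9, Il1f10, Il1rapl1, Il2, Il4i1, Il5ra, Il9r, Il12a, Il13, Il17b, Il17f, Il19, Il20, Il20ra, Il22ra1 and Il23r. In single libraries they reached at most 29 normalized counts (Il1f9, in Ad-Yap/Taz-KO SD replicate 2, with 0 in 5 of the other libraries). They were not tested in the main fit, and none of them was called in the fit without the filter on low values. Of the tested members, 23 were called in none of the 5 comparisons.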

How the data were processed

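RNA from epididymal white adipocytes was measured in 8 libraries (WT and Ad-Yap/Taz-KO, SD and HFD, 2 libraries per group), grouped by the sample labels. The authors depleted ribosomal RNA, used a stranded kit, trimmed single-end reads, aligned them to GRCm38 with STAR 2.5.2b, counted them on exons with featureCounts 1.5.1, leaving out reads over several genes or places, and tested with DESeq2 1.14.1 (versions per the submitters' processing notes). The values they deposited are a score rather than raw reads: reads per gene that were scaled library by library and then rounded, so count tests were not run here. The method behind the size factors and the use of strand in counting are not given in the sources used here. The value of 1 read was estimated by maximum likelihood from the whole numbers that are skipped or doubled up to 300, and kept where its log-likelihood exceeded that of any other value by 50 or more, a limit set after simulation and after the estimates were seen; 6 were kept and 2 were not. Reads on genes are the total divided by this value. Where it was not kept, 1 normalized count was taken as 1 read in comparing replicates with the Poisson expectation. Reads carry no molecular identifiers.

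Genes whose mean reached 5 (18800 of 30387) were tested with limma 3.58.1 in R 4.3.3 (lmFit, contrasts.fit, eBayes with trend) on log2(value + 1), with all 4 groups in one fit (residual degrees of freedom 4, prior 8.59). All adjusted p-values are Benjamini-Hochberg values from limma over all genes tested. Nothing shows that mice were paired across groups. The fit was tested on simulated data. Alternatives were a pseudocount of 0.1 or 8, a filter at a mean of 50 or none, equal library totals, the replicate number as a block, robust eBayes, the WT HFD libraries averaged, a fit of only the groups compared, and leaving out each library.

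Named were every member called in 1 of the 5 contrasts, the 12 highest per kilobase of exon, the IL-1, IL-6 and IL-10 axes, and partner chains or ligands of these. Il18, Il12rb2, Il20rb, Il22ra2, Il31ra and Il1f9 were singled out after their values were seen. The members and lists were chosen with earlier results of these data known. Gene symbols and coordinates follow the deposited table (GRCm38); all 73 members were found in GENCODE vM21, which gave exon lengths and overlaps. Promoter windows came from RefSeq (GRCm38.p6), with entries for 58 of 73 members. Python 3.11.15 with pandas 2.3.3 and numpy 2.4.6 wrote the tables, and matplotlib 3.10.9 drew the figures.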

Additional observations from a re-analysis of the deposited data

Results flagged for a closer look

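For 14 members the genotype difference itself differed between the diets by the interaction term of the limma fit. Positive values mean that the log2 difference of Ad-Yap/Taz-KO over WT was larger on HFD than on SD. They were 4.17 (SE 1.01, adjusted p = 0.017) for Il21r, 4.06 (SE 1.24, adjusted p = 0.042) for Il12rb1, 3.11 (SE 0.56, adjusted p = 0.006) for Il23a and 2.27 (SE 0.67, adjusted p = 0.037) for Il2rg. They were 2.05 (SE 0.56, adjusted p = 0.027) for Il16, 2.00 (SE 0.57, adjusted p = 0.032) for Il10ra, 1.82 (SE 0.50, adjusted p = 0.027) for Il1b and 1.72 (SE 0.42, adjusted p = 0.017) for Il10. Smaller ones were 1.54 (SE 0.48, adjusted p = 0.043) for Il1rl2, 1.15 (SE 0.34, adjusted p = 0.035) for Il4ra and 0.77 (SE 0.21, adjusted p = 0.027) for Il17ra. Negative interactions were -1.02 (SE 0.27, adjusted p = 0.023) for Il15ra, -2.14 (SE 0.41, adjusted p = 0.0074) for Il7 and -3.58 (SE 1.01, adjusted p = 0.031) for Il13ra2.

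Il23a and Il7 were the most stable of these. The Il23a interaction was called in all 16 alternatives and that of Il7 in 15, being lost without WT SD replicate 1. Of the 14 calls, Il23a alone was kept without WT SD replicate 1, Il23a and Il7 without Ad-Yap/Taz-KO SD replicate 2, and Il21r, Il23a and Il7 without WT HFD replicate 1. Without WT HFD replicate 2, 4 were kept (Il10ra, Il12rb1, Il23a and Il7), and 4 without Ad-Yap/Taz-KO HFD replicate 2 (Il10, Il1b, Il23a and Il7). Without WT SD replicate 2, 6 were kept (Il13ra2, Il1b, Il1rl2, Il23a, Il4ra and Il7). Without Ad-Yap/Taz-KO SD replicate 1, 2 were lost (Il12rb1 and Il13ra2), and without Ad-Yap/Taz-KO HFD replicate 1, 3 were lost (Il10ra, Il1b and Il2rg). Of the macrophage markers, 10 of 12 had a called interaction in the same direction as Il10 and Il1b, as had 7 of 8 endothelial markers and 8 of 10 fibroblast and progenitor markers, while 7 of 10 adipocyte markers had one in the opposite direction. The part of these cells was not tested.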

How the results depend on the processing

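Leaving out 1 library gave 20 to 26 called members between genotypes on HFD (30 with all libraries), 4 to 9 on SD (9), 3 to 5 for diet in WT (7), 0 to 9 for diet in Ad-Yap/Taz-KO (4) and 1 to 19 for the interaction (14). Without the filter on low values, where more genes share the adjustment, the counts were 4 for diet in WT, 0 for diet in Ad-Yap/Taz-KO (14 at an unadjusted p under 0.05 in limma) and 2 for the interaction. With the WT HFD libraries averaged they were 3, 2 and 2, and scaling to the same total gave 18 for diet in WT, all lower (18.9% of all genes were lower and 2.48% higher). Diet in Ad-Yap/Taz-KO gave 2 with a pseudocount of 0.1, and 0 in a fit of its own groups (11 at an unadjusted p under 0.05). The cause of these shifts was not tested. On HFD the counts were within 1.5 times the main count in all 13 alternatives. Values with the other sign were 0.33 for Il6ra on HFD with equal totals and -0.43 for Il6 on SD without Ad-Yap/Taz-KO SD replicate 1, and, within 1 SE of the main value, -0.007 for Il11ra1 on HFD with the WT HFD libraries averaged; leaving out 1 library gave -0.16 to 0.17 for Il11ra1 on HFD, -0.095 to 0.23 for Il6st on HFD, -0.069 to 0.011 for Il1r1 on SD and -0.33 to 0.64 for the Il1a interaction. None of these was called, and Il6 on SD ranged up to 0.66 without Ad-Yap/Taz-KO SD replicate 2. Scaling to the same total shifted the median log2 fold change of all genes by 0.38 on HFD, -0.40 for diet in WT and 0.42 for the interaction. The replicate numbers are not known to pair mice: correlations of replicate differences between groups were -0.11 to 0.04. With the replicate block, 30 members were called on HFD, 8 on SD (Il2ra being lost), 7 for diet in WT, 4 for diet in Ad-Yap/Taz-KO and 14 for the interaction. With 2 libraries per group and depths of 14.0 to 22.3 M reads in the 6 libraries where it could be estimated, members at a few reads, such as Il13ra2 in Ad-Yap/Taz-KO HFD, have no well-defined fold change.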
